A study of Caenorhabditis elegans with 6 samples.

Results

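The heat-inducible genes of the HSP-16 and cytosolic Hsp70 families were followed on 6 Affymetrix C. elegans genome arrays of heat-shocked whole larvae. The genes taken were hsp-16.1, hsp-16.11, hsp-16.2, hsp-16.41, hsp-16.48, hsp-16.49, hsp-70 (C12C8.1), F44E5.4 and F44E5.5, and every probe set whose platform annotation names one of them was used. This gave 7 probe sets for 9 genes, of 22548 probe sets tested and 18217 genes named on the array, and all 9 genes were measured. 4 of the 7 probe sets name a pair of paralogues, so hsp-16.1 with hsp-16.11, hsp-16.48 with hsp-16.49, and F44E5.4 with F44E5.5 were each read as 1 value and cannot be separated. No filter on low signal was applied to them.

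The study compared 2 transgenic strains, each with 3 samples that its methods describe as independent biological replicates. hs::ΔNTbar-1 animals carry the integrated array huIs7, in which the hsp-16.2 promoter drives a Myc-tagged BAR-1 β-catenin that lacks its amino terminus, together with mec-7::GFP and dpy-20(+). hs::control animals carry the integrated array deIs14, made by injecting the empty heat shock vector pPD49.78 with mec-7::GFP and dpy-20(+) into dpy-20(e1282) animals. Larvae of both strains, kept at 20°, were heat-shocked for 30 min at the L2/L3 molt and collected after 60 min of recovery, with the temperature stated as 38° in the methods and as 30° in the sample labels. All 6 samples were therefore heat-shocked. No sample without heat shock was analysed here, and the values below are levels after heat shock and differences between strains, with no measure of induction. Each strain is 1 integrated line, so that other fixed differences between the lines cannot be told apart from a response to ΔNTBAR-1, and in whole animals a change in RNA per cell cannot be told apart from a change in the number of cells that express a gene.

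Heat shock factor HSF-1 is the transcription factor that binds heat shock elements in the promoters of these genes and switches them on when proteins unfold. HSP-16 proteins are small heat shock proteins with an α-crystallin domain, which hold unfolded proteins in a soluble state without using ATP. Hsp70 proteins bind exposed stretches of unfolded proteins and release them in a cycle driven by ATP. The hsp-16.2 promoter is widely used in C. elegans to express transgenes after a heat pulse, as it was for ΔNTBAR-1 here. In the RefSeq gene order of assembly WBcel235, hsp-16.2 and hsp-16.41 are next to each other on chromosome V, where hsp-16.1, hsp-16.48, hsp-16.49 and hsp-16.11 also form an unbroken run. F44E5.4 and F44E5.5 are neighbours on chromosome II. The hsp-70 gene lies on chromosome I, where its span overlaps that of uggt-2, and the uggt-2 probe set read between 2.0 and 30.1 on the 6 arrays.

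Values are linear signal intensities, scaled by the authors to a common trimmed mean, which is 500.2 on every array. The median signal of an array was between 131 and 145. Log2 values correlated across probe sets with r of 0.979 to 0.981 between arrays of a strain and of 0.973 to 0.976 between strains. The transgene target bar-1 read 7755, 20991 and 16009 in hs::ΔNTbar-1 and 586, 519.5 and 575 in hs::control, so each array lay on the side its label gives. All markers of hypodermis, intestine, muscle, pharynx and nervous system had mean signals above the array median. The 2 sperm markers measured had mean signals below it. Of the 4 markers of oocytes, embryos and adult yolk, 3 had mean signals above it, and the yolk gene vit-2 had a mean signal of 7.55. In every list of signals the hs::ΔNTbar-1 arrays stand first, each strain in the order of replicates 1, 2 and 3.

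The HSP-16 genes had bright signals on all 6 arrays. hsp-16.2 read 3269, 6172 and 5527 in hs::ΔNTbar-1 and 5148, 1742 and 2771 in hs::control. The highest value was that of hs::ΔNTbar-1 replicate 2, the lowest that of hs::control replicate 2, and the groups overlapped because hs::control replicate 1 lay above hs::ΔNTbar-1 replicate 1. The shared probe set of hsp-16.1 and hsp-16.11 read 5138, 7792.5 and 8744 against 6464.5, 1817 and 4723. Here hs::ΔNTbar-1 replicate 3 was highest, hs::control replicate 2 was again lowest, and the groups again overlapped through replicate 1 of each strain.

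hsp-16.41, the neighbour of hsp-16.2, read 6857, 9055 and 11760.4 in hs::ΔNTbar-1 and 6604, 4547 and 7347 in hs::control. The overlap of the groups was narrow, with hs::control replicate 3 above hs::ΔNTbar-1 replicate 1 and the other values apart. The shared probe set of hsp-16.48 and hsp-16.49, which lie between hsp-16.1 and hsp-16.11, read 7076.5, 9884 and 10404 against 8042, 6064.5 and 9233. Both hs::control replicates 1 and 3 lay above hs::ΔNTbar-1 replicate 1. On each of the 4 HSP-16 probe sets, replicates 2 and 3 of hs::ΔNTbar-1 were the 2 highest arrays and replicate 2 of hs::control was the lowest.

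Ranked among all probe sets of the same array, hsp-16.41 lay between percentiles 96.7 and 98.6 and hsp-16.48/hsp-16.49 between percentiles 97.6 and 98.5. hsp-16.2 lay between percentiles 91.2 and 97.6 and hsp-16.1/hsp-16.11 between percentiles 91.6 and 98.2. In both cases the lowest rank was that of hs::control replicate 2. Ranks describe brightness on the array. Probe sets bind their targets with different strength, so the order of the genes by signal is not an order of RNA amounts.

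**Figure D1:**
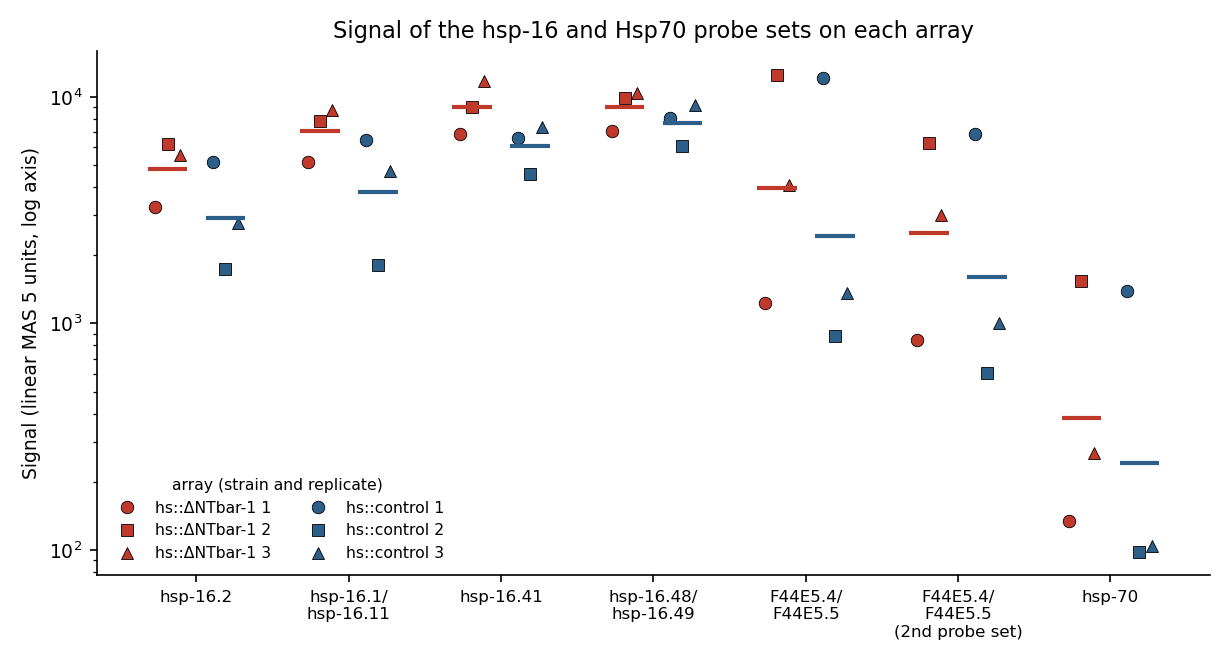
Signal of the 7 probe sets on each of the 6 arrays, in linear MAS 5 units on a log axis. Points are single arrays, with hs::ΔNTbar-1 in red and hs::control in blue, symbols give the replicate number, and lines are the group means on the log scale. The HSP-16 probe sets read 1742 or more on every array, whereas hsp-70 ran from 98.5 to 1546.

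None of the HSP-16 probe sets passed the test between the strains. The mean signal of hsp-16.2 was 4989 ± 1524 (SD, n = 3) in hs::ΔNTbar-1 and 3220 ± 1747 in hs::control, a log2 fold change of 0.72 on the log2(signal + 16) scale (standard error 0.43, adjusted p = 0.537 from limma). The 95% interval of this difference ran from -0.33 to 1.77, that is from 0.795-fold to 3.41-fold. For hsp-16.1/hsp-16.11 the means were 7225 ± 1869 and 4335 ± 2348, with a log2 fold change of 0.88 (standard error 0.48, interval -0.29 to 2.05, adjusted p = 0.492 from limma). This gene pair had the largest fitted strain difference of the 7 probe sets, 1.84-fold, and its interval still included no difference.

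For hsp-16.41 the means were 9224 ± 2456 and 6166 ± 1450.4, with a log2 fold change of 0.57 (standard error 0.26, adjusted p = 0.419 from limma). Its interval, from -0.06 to 1.21, came nearest to leaving out 0 among the 7. For hsp-16.48/hsp-16.49 the means were 9122 ± 1790.2 and 7779.9 ± 1601, with a log2 fold change of 0.23 (standard error 0.22, interval -0.3 to 0.76, adjusted p = 0.712 from limma). A rise of more than 1.7-fold lay outside the interval of this pair, while for hsp-16.2 and hsp-16.1/hsp-16.11 rises of up to 3.41-fold and 4.15-fold lay inside. Of the 7 probe sets, 0 were called at an adjusted p under 0.05, where 0.674% of all probe sets were called (152 of 22548), and 0 of 7 had groups that did not overlap, where 20.8% of all probe sets had. At an unadjusted p under 0.05 limma gave 0 of the 7 and 13.5% of all probe sets (3039). An analysis of variance on the same values, with p of at most 0.05 and a change of at least 2-fold, took 0 of the 7 and 1.25% of all probe sets.

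All 7 probe sets had a higher mean in hs::ΔNTbar-1, and their median log2 fold change was 0.64, beside 50.6% higher and a median of 0 over all probe sets. The summed signal of the 3 hypodermis markers (dpy-7, dpy-5 and rol-6) was also higher in every hs::ΔNTbar-1 array. It was 22696, 21000.4 and 19018 against 16068, 12740.5 and 15243, and lowest in hs::control replicate 2, as the 7 probe sets were. Of these markers, dpy-5 and rol-6 each had this pattern. dpy-7 did not, with 2265, 1855 and 2118 against 1777, 2317 and 1844. The dpy-7 groups overlapped, and its highest array was hs::control replicate 2. None of the 3 hypodermis markers was called. By contrast, the summed signals of the pharynx, intestine and touch neuron markers were lower in every hs::ΔNTbar-1 array than in any hs::control array. They were 5890, 6937 and 6553 against 7249, 8638.5 and 7367 for pharynx, highest in hs::control replicate 2. For intestine they were 28569, 26746 and 27247 against 30760, 29901 and 29553. Those of the remaining marker groups overlapped between the strains. The part of tissue markers in the result was not tested. The 7 values do not stand for 7 separate observations, since they come from the same 6 RNA samples and varied together across them. The strain differences of the HSP-16 genes rested in part on hs::control replicate 2. Without it the log2 fold changes were 0.35 for hsp-16.2, 0.35 for hsp-16.1/hsp-16.11, 0.37 for hsp-16.41 and 0.06 for hsp-16.48/hsp-16.49.

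**Figure D2:**
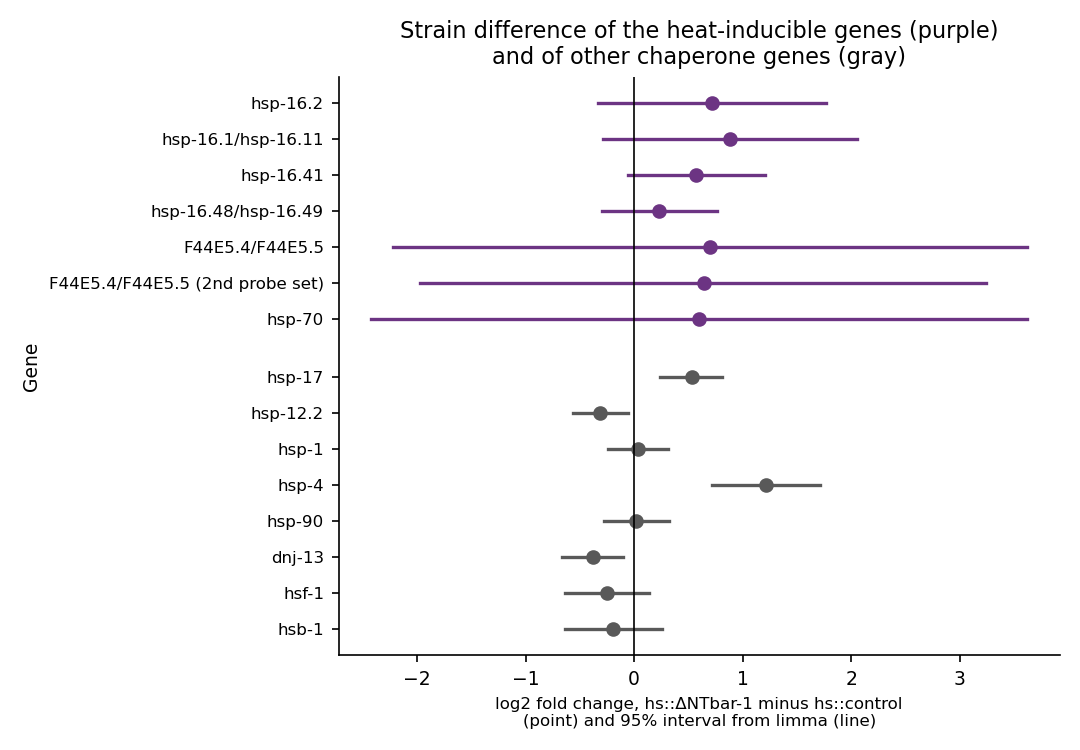
Log2 fold change between hs::ΔNTbar-1 and hs::control with its 95% interval from limma, for the 7 heat-inducible probe sets (purple) and 8 other chaperone and heat shock response genes (gray). Points are estimates and lines intervals. All 7 purple intervals include 0, and those of the 3 Hsp70 probe sets span from about -2 to over 3 on the log2 scale, whereas the interval of hsp-4 runs from 0.72 to 1.71.

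The inducible Hsp70 genes differed between arrays of the same strain by 7.39-fold to 14.0-fold from lowest to highest. The first probe set of F44E5.4 and F44E5.5 read 1225, 12531 and 4076 in hs::ΔNTbar-1 and 12103, 876 and 1364 in hs::control. One array in each strain, hs::ΔNTbar-1 replicate 2 and hs::control replicate 1, had the high values, and the 3 lowest arrays came from both strains. The second probe set of the same gene pair read 844, 6239.9 and 3014 against 6846, 606 and 1002. The order of the arrays was the same except that the 2 highest changed places.

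hsp-70, on another chromosome and read by a probe set annotated to hsp-70 alone, had the same 2 arrays high and replicate 2 of hs::control lowest. It read 134, 1546 and 269 in hs::ΔNTbar-1 and 1384, 98.5 and 104 in hs::control. The suffix of its probe set marks probes that can match several transcripts, although the annotation names 1 gene. On its 2 high arrays hsp-70 lay at percentiles 90.2 and 89.0 of all probe sets, and on hs::control replicates 2 and 3 at percentiles 44.6 and 44.0, near the middle of all probe sets. F44E5.4/F44E5.5 lay between percentiles 83.2 and 98.8 on the first probe set and between percentiles 77.0 and 97.7 on the second.

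The 3 Hsp70 probe sets thus ran over ranges of 14.3-fold, 11.3-fold and 15.7-fold from the lowest to the highest array. hsp-16.1/hsp-16.11 ran over 4.81-fold, hsp-16.2 over 3.54-fold, hsp-16.41 over 2.59-fold and hsp-16.48/hsp-16.49 over 1.72-fold. Within a strain, the SD of the log2 values was 1.85, 1.65 and 1.91 for the Hsp70 probe sets and between 0.30 and 0.73 for the HSP-16 probe sets.

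With this spread the strain comparison of the Hsp70 genes was imprecise. The means of the first F44E5.4/F44E5.5 probe set were 5944 ± 5880.3 in hs::ΔNTbar-1 and 4781 ± 6346 in hs::control, with a log2 fold change of 0.70 (standard error 1.21, adjusted p = 0.858 from limma) and an interval from -2.22 to 3.62. The second probe set gave 3366 ± 2715 and 2818 ± 3494, with a log2 fold change of 0.64 (standard error 1.08, interval -1.97 to 3.24, adjusted p = 0.854 from limma). For hsp-70 the means were 650 ± 779 and 529 ± 740, with a log2 fold change of 0.60 (standard error 1.25, interval -2.42 to 3.62, adjusted p = 0.882 from limma). The SD of each group was close to its mean or above it, and a difference in either direction of several-fold could not be detected with 3 arrays per strain.

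The sign of the Hsp70 difference depended on single arrays. Without hs::ΔNTbar-1 replicate 2 the log2 fold changes were -0.13, -0.02 and -0.37, and without hs::control replicate 2 they were -0.03, -0.06 and -0.01. Without hs::control replicate 1 they were 1.85, 1.67 and 1.79. None of these values passed the test.

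Set against the mean of all 6 arrays, both families were lowest in hs::control replicate 2, by -0.94 on the log2 scale for the mean of the 4 HSP-16 probe sets and by -1.68 for the mean of the 3 Hsp70 probe sets. They parted on other arrays. hs::control replicate 1 stood 1.93 above the mean for Hsp70 and 0.14 above it for HSP-16. hs::ΔNTbar-1 replicate 3 had the highest HSP-16 mean, 0.58, with a Hsp70 mean of 0.25. hs::ΔNTbar-1 replicate 1 was -1.24 for Hsp70 and -0.14 for HSP-16, and hs::control replicate 3 was -1.21 and -0.11.

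Within the HSP-16 family the duplicated and neighbouring genes also differed in detail. For hsp-16.2 and hsp-16.1/hsp-16.11 the third highest array was hs::control replicate 1. For hsp-16.41 and hsp-16.48/hsp-16.49 it was hs::control replicate 3, and hs::control replicate 1 lay at -0.16 and -0.05. These orders describe 6 arrays and were not tested.

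**Figure D3:**
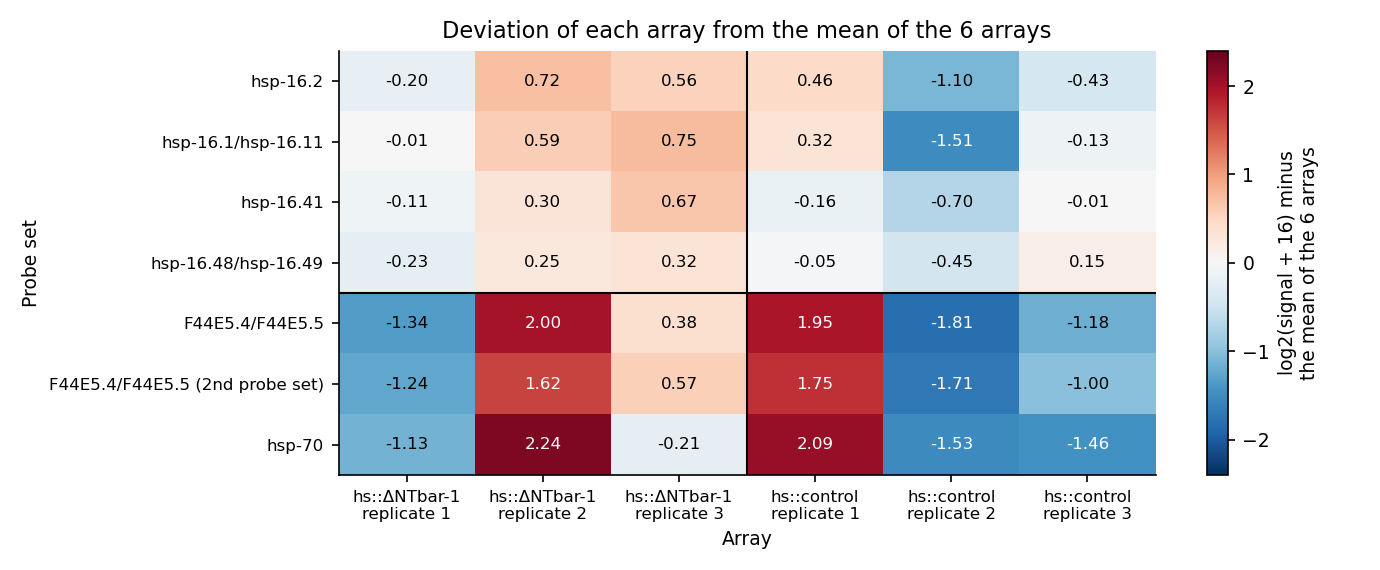
Deviation of log2(signal + 16) on each array (columns) from the mean of the 6 arrays, for each probe set (lines of the grid), with the value printed in each cell and red above the mean, blue below. The 3 Hsp70 probe sets reach 1.62 to 2.24 on hs::ΔNTbar-1 replicate 2 and 1.75 to 2.09 on hs::control replicate 1, and all 7 are lowest on hs::control replicate 2.

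Few other probe sets varied as much as the Hsp70 probe sets. Among the 12564 probe sets with a mean signal of at least 100, the median range from the lowest to the highest array was 0.48 on the log2 scale, and the median SD within a strain was 0.15. The ranges of the Hsp70 probe sets were 3.81, 3.46 and 3.77, and 15 of the 12564 probe sets (0.119%), these 3 included, had a range at least as wide as the smallest of them. By the SD within a strain, the 3 were among the 4 most variable of the 12564. hsp-16.1/hsp-16.11 had a range of 2.26, which 58 of the 12564 reached, and hsp-16.2 one of 1.82, which 125 reached. hsp-16.41 had a range of 1.37, which 345 reached, and hsp-16.48/hsp-16.49 one of 0.78, which 2253 reached.

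Probe sets of like brightness were steady. Of the 200 nearest in mean signal to each member, the median range was between 0.34 and 0.47. None of the 200 reached the range of hsp-16.1/hsp-16.11 or of either F44E5.4/F44E5.5 probe set, 1 reached that of hsp-70, 2 that of hsp-16.2, 4 that of hsp-16.41 and 11 that of hsp-16.48/hsp-16.49.

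**Figure D4:**
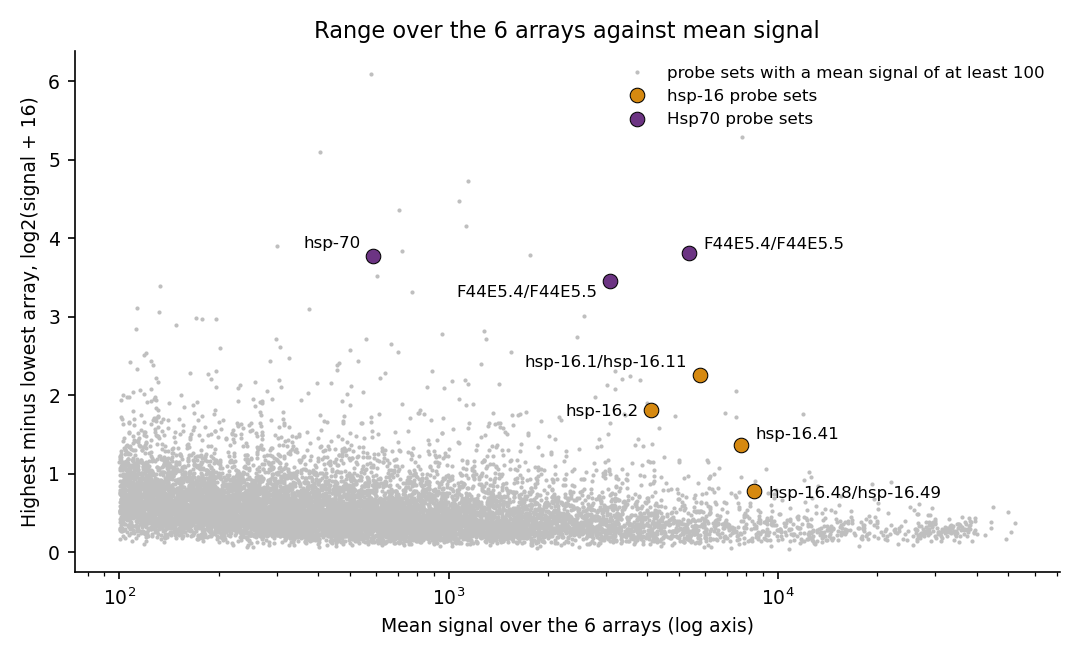
Difference between the highest and the lowest array in log2(signal + 16) against mean signal over the 6 arrays on a log axis, for each of the 12564 probe sets with a mean signal of at least 100 (gray), the HSP-16 probe sets (orange) and the Hsp70 probe sets (purple). The 3 Hsp70 points lie at 3.46 to 3.81, where the median of all points is 0.48.

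The labels give no harvest or batch that differs between replicates. The arrays' ratios of 3′ to 5′ signal for the Gapdh control, a measure of RNA and label quality, were 1.17, 1.15 and 1.23 in hs::ΔNTbar-1 and 1.55, 1.27 and 1.38 in hs::control. The 2 arrays with high Hsp70 signals, hs::ΔNTbar-1 replicate 2 and hs::control replicate 1, had the lowest and the highest of these ratios. The corresponding Actin ratios were 1.49, 1.6 and 1.71 against 2.01, 1.61 and 1.86. For Ubiquitin the ratio was 18.9 in hs::control replicate 1 and 13.7 in hs::ΔNTbar-1 replicate 2, and for catalase it was 6.65 and 4.53. Thus hs::control replicate 1 had the highest ratio of all arrays for each of these controls. The lowest was that of hs::ΔNTbar-1 replicate 2 for Gapdh and catalase, but of other arrays for Actin and Ubiquitin. The part of RNA quality in the spread of the heat-inducible genes was not tested.

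The bar-1 probe set reads RNA of the endogenous bar-1 gene and of the transgene, which carries the hsp-16.2 promoter, without separating them. In hs::ΔNTbar-1, bar-1 was 2.71-fold higher in replicate 2 than in replicate 1 and 2.06-fold higher in replicate 3 than in replicate 1. The endogenous hsp-16.2 gene was 1.89-fold and 1.69-fold higher in the same comparisons, and so followed the same order over smaller steps. hsp-16.1/hsp-16.11 was 1.52-fold and 1.7-fold higher, hsp-16.41 was 1.32-fold and 1.72-fold, and hsp-16.48/hsp-16.49 was 1.4-fold and 1.47-fold. The Hsp70 probe sets were 10.2-fold, 7.39-fold and 11.5-fold higher in replicate 2, and 3.33-fold, 3.57-fold and 2.0-fold higher in replicate 3. The order of bar-1 was thus also that of the Hsp70 probe sets and not particular to hsp-16.2. On the other HSP-16 probe sets replicate 3 was above replicate 2. In hs::control, where bar-1 is not on the transgene, bar-1 differed 1.13-fold between replicates 1 and 2, while hsp-16.2 differed 2.95-fold and hsp-70 14.0-fold. With 3 arrays these ratios are a description. bar-1 itself was called higher in hs::ΔNTbar-1, with a log2 fold change of 4.58 (adjusted p = 0.00775 from limma).

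The other chaperone genes had narrower ranges than the inducible Hsp70 genes, the widest being 1.77. Of 59 other genes in 5 lists of heat shock proteins, cochaperones, HSF-1 regulators and stress-inducible genes, 55 were measured, 0 were called higher and 0 lower, beside 0.408% of all probe sets higher and 0.266% lower. Their median log2 fold change was 0 and their median range 0.42, with 9 of 55, several of them dim, reaching a range of 1. Among the brighter of these, mtl-2 had a range of 1.65, which lay within hs::ΔNTbar-1 and was wider than that of hsp-16.41. It read 2565, 809 and 1700 in hs::ΔNTbar-1 and 1193, 1208 and 1002.5 in hs::control. The constitutive cytosolic Hsp70 hsp-1, which folds proteins in unstressed cells, read between 19756 and 22826 on all 6 arrays, a range of 0.21 on the log2 scale (log2 fold change 0.04, adjusted p = 0.926 from limma). The cytosolic Hsp90 gene hsp-90 read between 20111 and 24819 (0.02, adjusted p = 0.966 from limma). The range of hsp-90 was 0.3, where those of the inducible Hsp70 probe sets were 3.46 to 3.81.

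Among the 6 other Hsp70 and Hsp110 genes the median range was 0.42, and 1 gene reached a range of 1. This was hsp-4, the BiP Hsp70 of the endoplasmic reticulum and a target of the unfolded protein response. hsp-4 read 8072, 9926 and 10834 in hs::ΔNTbar-1 and 4447, 3159.8 and 4902 in hs::control, so that the groups did not overlap. Its log2 fold change was 1.22 (standard error 0.21, interval 0.72 to 1.71), and it missed the threshold after adjustment (adjusted p = 0.0718 from limma). hsp-4 passed when dim probe sets were left out (0.0123), with a pseudocount of 64 (0.0244) and with a trended variance (0.00265). Its wide range thus lay between the strains, whereas that of the inducible Hsp70 genes lay within them.

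The 10 other small heat shock protein genes had a median range of 0.7 and a median log2 fold change of -0.3, and 4 of them reached a range of 1. All 4 were dim, with no signal above 70.6 on any array. hsp-12.2, which had the highest mean signal of them, read 5581, 6205 and 5859 in hs::ΔNTbar-1 and 7285, 7115.5 and 7477 in hs::control, with groups that did not overlap (log2 fold change -0.31, adjusted p = 0.275 from limma). hsp-17 read 3641, 3635.5 and 3717 against 2426, 2357 and 2857 (log2 fold change 0.53, adjusted p = 0.146 from limma). The genes hsp-16.20 (F08H9.3) and hsp-16.21 (F08H9.4), which bear the hsp-16 name but are not among the genes listed, were dim, with signals between 3.8 and 31.4 and between 0.9 and 31.2, and hsp-16.21 had the largest fitted change of the list (-0.61, adjusted p = 0.563 from limma).

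The 25 Hsp90, chaperonin and cochaperone genes had a median range of 0.29, and none reached a range of 1. The widest was sti-1, an Hsp70 and Hsp90 cochaperone, with 0.72. The largest change was that of dnj-13, a J-domain protein that stimulates Hsp70, which read 1523, 1436 and 1385 against 1976.5, 1994 and 1711 (log2 fold change -0.38, adjusted p = 0.24 from limma). Another dnj-13 probe set gave -0.08.

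hsf-1 read 178, 244 and 225 in hs::ΔNTbar-1 and 256, 294 and 226 in hs::control (log2 fold change -0.25, interval -0.64 to 0.14, adjusted p = 0.573 from limma). The other hsf-1 probe set gave -0.18 (adjusted p = 0.594 from limma). The array with the lowest HSP-16 and Hsp70 signals, hs::control replicate 2, had the highest hsf-1 signal on the first probe set. hsb-1, which binds HSF-1 and restrains it, read 1198, 862 and 1334 against 1396, 1212 and 1216 (-0.19, adjusted p = 0.717 from limma), and its other probe set gave 0.26 (adjusted p = 0.459 from limma). Of the 6 measured genes for HSF-1 and its regulators, ddl-2 had the largest change and a range of 1.31 at signals of 3.1 to 31.2, and ftt-2, a 14-3-3 protein, had the highest mean signal (0.07, adjusted p = 0.848 from limma, with 0.03 and -0.15 on its other probe sets). Of the 9 other stress-inducible genes measured, hsp-4 again had the largest change and ubq-2, which encodes ubiquitin fused to a ribosomal protein, had the highest signal, between 28653 and 33644 (-0.08, adjusted p = 0.827 from limma).

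The genes whose pattern over the 6 arrays was most like the mean of the HSP-16 probe sets were C01A2.4 (Pearson r = 0.994), F41B4.3 (0.99), F36D4.5 (0.986), mlh-1 (0.985) and szy-4 (0.976). These were taken from 11970 probe sets that name 1 gene and have a mean signal of at least 100, of which 88 (0.735%) had r of at least 0.9. C01A2.4 read 358, 496 and 484 in hs::ΔNTbar-1 and 407, 232 and 347 in hs::control, and F41B4.3 read 1093, 1474 and 1501 against 1149, 747 and 1125. Both were lowest in hs::control replicate 2, over ranges of 1.05 and 0.992 on the log2 scale. F36D4.5 and mlh-1 were also lowest in hs::control replicate 2, over ranges of 0.379 and 0.27. With 6 points and many probe sets searched, high values of r arise among unrelated genes, and these are given as a description.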

How the data were processed

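Total RNA of 6 samples was hybridized to 1 array each. The authors deposited a linear signal intensity for each of 22625 probe sets. Their methods name MAS 5 for detection and RMA in Partek for statistics, and the submitters' processing notes list MAS5 with Partek. As the values are linear and share a trimmed mean, they were read as scaled MAS 5 signal. The labels give 6 µg of RNA per sample and the methods 5 µg. The table has 0 columns of other samples. At most 0.296% of values were identical between any 2 arrays.

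Groups came from the genotype labels and replicate numbers from the sample names. The 77 control probe sets were left out. Genes were named through the platform annotation, in which 20766 tested probe sets name 1 gene, 887 several and 895 none, and 20701 of the first matched the RefSeq table of WBcel235 by identifier, which gave gene order. No filter was applied.

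log2(signal + 16) was fitted in limma 3.58.1 (R 4.3.3; lmFit, then eBayes), with two-sided p, no replicate block, Benjamini-Hochberg adjustment over 22548 probe sets, a threshold of 0.05 and 95% intervals. The scale understates changes of dim probe sets. An exact permutation test of 3 against 3 cannot give p below 0.1 and was not used. Precision is limited by the number of arrays.

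A list gene was read from its brightest probe set. Named genes are the members, bar-1, in each list the called genes or else those of largest change and highest mean, and the 5 most like HSP-16. hsp-17, hsb-1, hsf-1, sti-1, hsp-16.20, mtl-2 and uggt-2 were named in addition, with their values known. The members, lists and rules were chosen with earlier results of these data known.

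Alternatives were quantile normalization, median centring, leaving out dim probe sets (under the 40th percentile) or probe set types that can bind several genes, pseudocounts of 1 and 64, a trended and robust variance, the replicate block, an analysis of variance with the methods' cut-offs on p and fold change, and leaving out each array. Promoter and protein sequences of the genes were not analysed here.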

Additional observations from a re-analysis of the deposited data

How the results depend on the processing

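Over 100 fold changes of the 7 probe sets under alternatives, 0 passed the threshold, with adjusted p from 0.193 to 0.998. In the 58 alternatives for HSP-16 probe sets the direction was kept in all. When each array was left out in turn, the log2 fold change ranged from 0.35 to 1.13 for hsp-16.2, from 0.35 to 1.26 for hsp-16.1/hsp-16.11, from 0.37 to 0.77 for hsp-16.41 and from 0.06 to 0.4 for hsp-16.48/hsp-16.49. For the Hsp70 probe sets it ranged from -0.13 to 1.85 and from -0.06 to 1.67 for F44E5.4/F44E5.5 and from -0.37 to 1.79 for hsp-70, and these 6 changes of sign, with replicate 2 of either strain left out, were the 6 reversals among the 100. The ranges over the 6 arrays moved by less than the SD within a strain in 28 of 28 values under quantile normalization, median centring and pseudocounts of 1 and 64, which were added after seeing the data.

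The count of all probe sets called, 152, was 635 without dim probe sets, 89 without probe set types that can bind several genes, and 89 and 389 with pseudocounts of 1 and 64. It was 833 with a trended and robust variance and 23 to 44 when single arrays were left out. With the replicate number as a block it was 2. An analysis of variance on these signals with the methods' cut-offs on p and fold change took 282. It used neither the methods' RMA values nor their rule on the direction of replicates. Deviations of arrays with the same number correlated at 0.066, -0.021 and 0.065, and those of other pairs at -0.091 to 0.026. These small values gave no clear sign of pairing, but with 3 arrays per strain they cannot show that the samples were unpaired. The count of members called was 0 throughout. Genes of the 5 lists called higher were 2 (hsp-4 and hsp-17) without dim probe sets, a setting added after seeing the data, 1 (hsp-4) with a pseudocount of 64, and 2 (hsp-4 and hsp-17) with a trended and robust variance, where 2 (hsp-6 and hsp-12.2) were called lower. Leaving out probe set types that can bind several genes removed all but hsp-16.2 and hsp-16.41, so no value without those types exists for the others. The comparison of promoters was not run, as it needs sequences that were not analysed here. With 3 arrays per strain, the widest interval, that of hsp-70, spans over 6 log2 units, and 4 of the 7 probe sets cannot assign a signal to 1 of their genes.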

Other observations

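The array pattern of the Hsp70 probe sets, high in hs::ΔNTbar-1 replicate 2 and hs::control replicate 1, was looked for in other genes after it had been seen. Of 944 probe sets that name 1 gene, have a mean signal of at least 100 and a range of at least 1 on the log2 scale, 1 had a Pearson r of at least 0.9 with the Hsp70 mean over the 6 arrays. This was gem-4, a copine (r = 0.981), which read 80.4, 162 and 99.1 in hs::ΔNTbar-1 and 163, 67.7 and 88.4 in hs::control. ZK792.7 (r = 0.892) read 2649, 5170.2 and 3193 against 3355, 1813 and 2106, and Y43F8B.2 (r = 0.878) read 1899.6, 3237.5 and 2102 against 2426, 1272 and 1144. D2096.6 (0.839) and dap-1 (0.835) followed. These genes are given as a description of 6 arrays.

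R11A5.3, whose values were seen before it was named, had the same 2 arrays high over a wider range of 5.1 on the log2 scale. It read 21.6, 918 and 32 in hs::ΔNTbar-1 and 1272.5, 58.8 and 137 in hs::control, with no call between the strains (adjusted p = 0.827 from limma). In contrast with the inducible Hsp70 genes, hs::ΔNTbar-1 replicate 3 was near the lowest array for this gene.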
